A study of Mus musculus with 9 samples.

Results

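The genes described here are 37 interferon response and antigen presentation genes, measured by RNA sequencing in mouse gastrocnemius, the large calf muscle. They were chosen by symbol among the 55416 gene identifiers of the deposited table, and all 37 were found there. A filter on low counts passed 33 of them, which were tested among 13944 genes, and Mx1, Mx2, Isg15 and Ifi44 did not pass. There were 3 groups of 3 libraries. AET_MET mice ran on a treadmill 5 days a week, 60 min a day, for 8 weeks and drank water with 2 mg/mL metformin, an oral glucose-lowering drug. AET mice had the same training without the drug, and SED mice stayed sedentary. The comparisons ask how expression of these genes differed with training, and how it differed between trained mice with and without metformin. The sources used here do not give strain, sex, age, time of collection, feeding or batches, and a group on metformin alone was not analysed here. The labels number the libraries of a group but do not tie them to separate mice. P-values therefore measure only the spread between libraries, which may be technical. Each group has its own stem in the library names, so a batch behind those names and the group cannot be told apart.

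Interferons are secreted proteins that warn tissue of infection. Type I interferons act through the receptor chains IFNAR1 and IFNAR2 and the kinases JAK1 and TYK2, which activate a complex that holds STAT2 and IRF9 and binds the interferon-stimulated response element (ISRE) of target genes. Type II interferon acts through IFNGR1, IFNGR2, JAK1 and JAK2, and its signal reaches the gamma-activated site (GAS). Target genes encode antiviral enzymes, GTPases that attack the membranes around intracellular parasites, and the machinery that shows peptides on MHC class I molecules. Resting muscle fibers are known for low class I levels, and whole muscle also holds vessels, fibroblasts, nerve and resident leukocytes.

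Promoter sequence was searched because these genes are known targets of shared factors. Stretches are printed only for some of the members that held an ISRE match. RefSeq windows (GRCm38.p6) matched 27 of the 37 members, and the 250 bases before each start were searched on both strands. The ISRE was searched as GAAA, any 2 bases and GAAA, which reads TTTC, any 2 bases and TTTC on the other strand, and matches may overlap. It matched in 13 members, against 3.46% of the 27025 genes with a window, and those 13 were B2m, Bst2, Gbp2, Gbp3, Ifit1, Ifit3, Ifit3b, Igtp, Irgm1, Isg15, Oas1a, Rsad2 and Stat2. The GAS was searched as TTC, any 3 bases and GAA, which reads alike on both strands. It matched in Bst2, Ifit2, Igtp, Irf1 and Oas1a, against 8.13% of genes. Of the 8 members with a window that were higher in AET than in SED, 4 held an ISRE match and 0 a GAS match. Over all 27 members with a window, 13 held an ISRE match and 5 a GAS match. Irf9, Oasl2, Dtx3l and H2-K1 were higher in AET than in SED and held neither. The stretches printed here are from B2m, Gbp3 and Stat2, which were higher in AET than in SED, from Isg15, whose counts were low in every library, and from the copies Ifit3 and Ifit3b. Capitals mark ISRE matches, and each stretch runs 5′ to 3′ on the strand of its gene.
B2m, chr2:122147493-122147612, plus strand: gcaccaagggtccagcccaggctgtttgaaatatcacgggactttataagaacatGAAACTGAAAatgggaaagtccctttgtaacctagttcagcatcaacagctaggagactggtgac
Gbp3, chr3:142559924-142560025, plus strand: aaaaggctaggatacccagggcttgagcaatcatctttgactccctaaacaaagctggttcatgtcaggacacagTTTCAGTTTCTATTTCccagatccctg
Stat2, chr10:128270248-128270367, plus strand: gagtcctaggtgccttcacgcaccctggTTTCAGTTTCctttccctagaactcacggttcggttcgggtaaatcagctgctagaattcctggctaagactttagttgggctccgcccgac
Isg15, chr4:156200832-156200951, minus strand: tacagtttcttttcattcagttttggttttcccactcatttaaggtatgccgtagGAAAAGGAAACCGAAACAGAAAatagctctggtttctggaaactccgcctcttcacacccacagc
Ifit3, chr19:34583318-34583437, plus strand: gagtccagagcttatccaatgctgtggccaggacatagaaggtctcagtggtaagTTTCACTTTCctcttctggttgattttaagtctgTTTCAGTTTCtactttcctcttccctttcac
Ifit3b, chr19:34607714-34607833, plus strand: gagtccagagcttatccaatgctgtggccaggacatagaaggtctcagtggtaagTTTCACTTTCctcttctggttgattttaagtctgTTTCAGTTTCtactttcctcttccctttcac
The matches of Gbp3 overlap each other, as do the 3 of Isg15, and the Ifit3 and Ifit3b stretches differ at 0 of 120 bases. The first matched base lies 139 bases before the RefSeq start in B2m, 45 in Gbp3, 222 in Stat2 and 78 in Isg15, and the match in Gbp2 lies at 59. A match describes these letters and does not show that a factor binds there. Only these exact patterns within 250 bases were searched, so the lack of a match, as in H2-K1, does not show that a site is absent.

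In trained muscle, 10 of the 33 tested members rose and 0 fell against SED. They have several roles in the pathway, but none is an RNA sensor or Ifit gene. Irf9 and Stat2 encode its DNA-binding complex, Oas2 and Oasl2 belong to the antiviral oligoadenylate synthetase family, and Dtx3l encodes a ubiquitin ligase. Gbp2, Gbp3 and Iigp1 encode interferon-inducible GTPases, and B2m and H2-K1 the chains of an MHC class I molecule. A gene was called at an edgeR Benjamini-Hochberg adjusted p under 0.05 over all genes tested, and 5.82% of all genes were called higher by this rule. Estimates lay above 0 for 28 of the 33, against 51.4% of all genes, and the median log2 fold change of the members was 0.38, against 0.01 over all genes. Every AET library was above every SED library for 16 of the 33, against 16.4% of all genes. At an unadjusted edgeR p under 0.05, 14 were higher and 0 lower, against 14.3% and 14.2% of all genes. In bulk muscle, more cells of a type and more RNA per cell cannot be told apart. The filter asks for about 0.457 CPM (counts relative to library size) in 3 libraries, and Oas2 alone among the tested members reached it in no SED library, while Dhx58 and Oas1a reached it in fewer than 3. The other 30 passed it in every SED library, and they include 9 of the 10 called genes. Oas2, the remaining called gene, passed only through libraries of trained mice, where it was high.

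**Figure D1:**
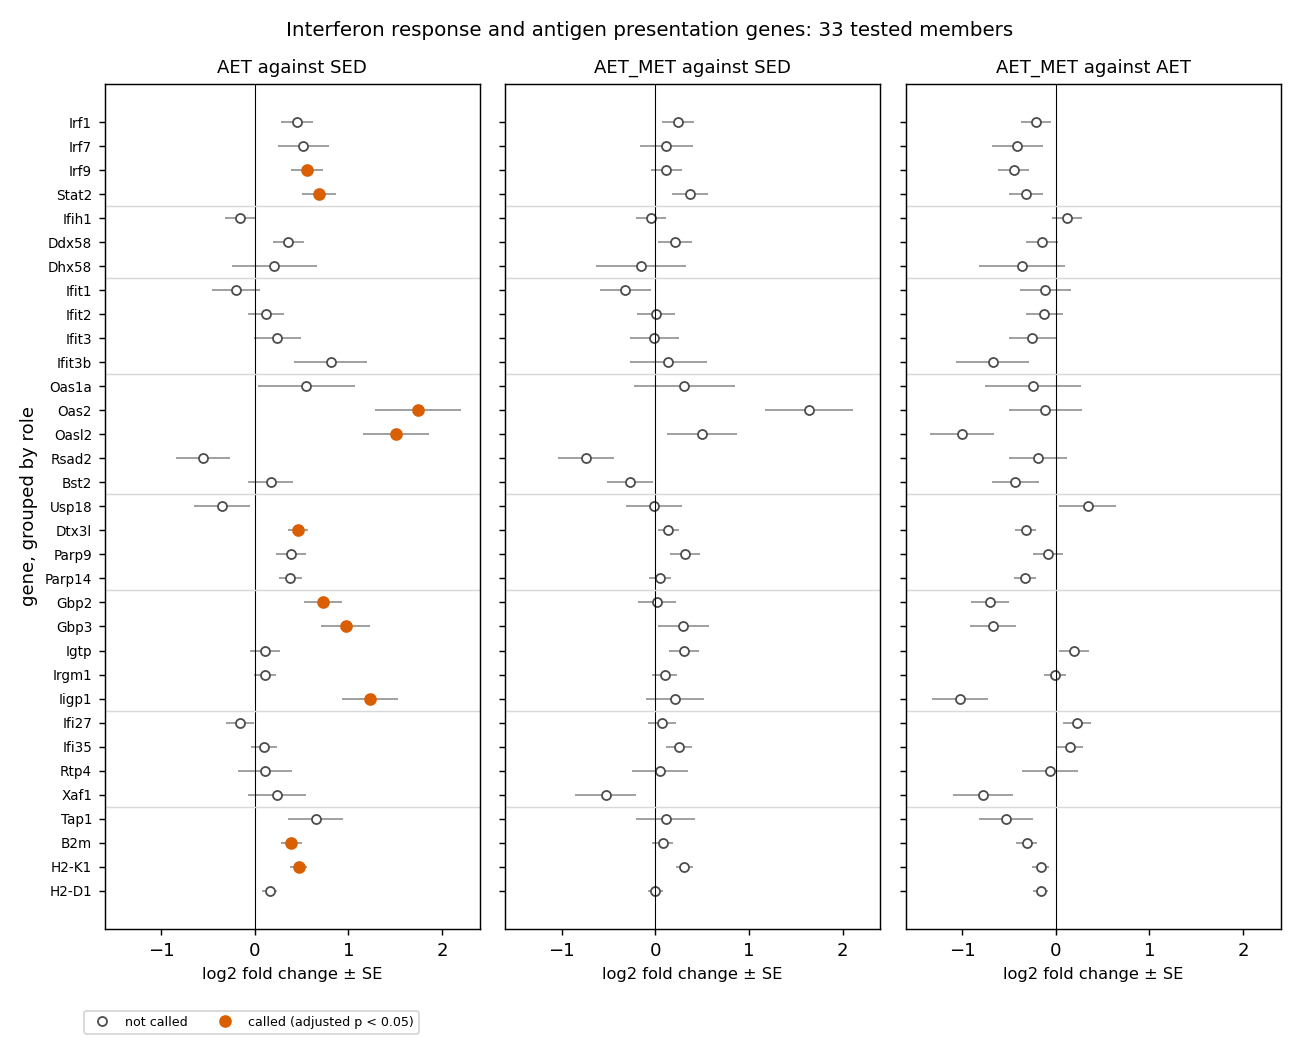
Log2 fold change ± SE of each of the 33 tested members, grouped by role, in AET against SED, AET_MET against SED and AET_MET against AET; filled points are genes called at an edgeR adjusted p under 0.05. The 10 filled points all lie right of 0 in AET against SED, and the other comparisons have none.

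The size of this set of calls depended on single libraries. Without AET replicate 1 the edgeR fit called 1 member, H2-K1, and without SED replicate 2 it again called H2-K1 alone. Of the 10 genes it called H2-K1 alone without AET replicate 3, 5 without SED replicate 1 and 3 without SED replicate 3, each including H2-K1. In each of these last 3 fits the filter let Isg15 in, only through AET, where it was high, and it was called higher as well. Calls of higher genes over the whole table also shrank in these fits, to 412, 427, 438, 507 and 563 without AET replicate 1, SED replicate 2, AET replicate 3, SED replicate 1 and SED replicate 3, against 812 in all libraries. H2-K1 kept its call in each of the 9 fits that left out 1 library, while Dtx3l kept it in 6, Oasl2, Gbp2 and Gbp3 in 5, Oas2 and Stat2 in 4, Iigp1 and B2m in 3 and Irf9 in 2. Estimates of all 10 stayed above 0 in those fits, the lowest being 0.26 for B2m without AET replicate 1.

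In AET_MET no member was called against SED, where 4.59% of all genes were called, or against AET, where 3.43% were. The lowest edgeR adjusted p was 0.0664 against SED, for Oas2, and 0.0643 against AET, for Gbp2. At an unadjusted edgeR p under 0.05, 3 members differed from SED, against 20.6% of all genes, with 2 higher and 1 lower, against 10.2% and 10.4%. At that p 9 members differed from AET, all lower, against 10.6% of all genes. Every AET_MET library lay below every AET library for 8 members, against 13.2% of all genes. DESeq2 called 0 members against SED and 2 against AET, both lower in AET_MET, Gbp2 and Iigp1. Estimates against AET lay below 0 for 28 of the 33 members, against 49.9% of all genes, with a median of -0.24, and against SED they lay above 0 for 25, against 50.5% of all genes, with a median of 0.11. These comparisons share libraries with AET against SED, so their estimates are not independent of it. A p above the threshold does not show that AET_MET muscle was like either group.

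None of the 9 interferon genes examined was measured at a usable level, and other interferon genes were not examined. Of the 9, 8 had 0 counts in all 9 libraries, including Ifnb1, which encodes interferon beta. Ifng, which encodes type II interferon, had 1 count, in SED replicate 3. A count of 0 allows up to 3 counts in a library. Of 129 other genes of the pathway listed by role, 128 were in the table and 97 were tested. In AET against SED, 17 of the 97 were called higher and 6 lower, where 5.82% and 6.45% of all genes were called higher and lower. In AET_MET against SED 0 were called higher and 3 lower, Mavs, Tor3a and Gbp6, where 2.17% and 2.42% of all genes were. In AET_MET against AET 0 were called higher and 1 lower, Tap2, where 1.66% and 1.77% of all genes were.

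Receptor and kinase genes did not move as 1 block. Ifnar1, the type I receptor chain, had 13.0, 10.2 and 11.3 CPM in AET_MET, 11.5, 11.8 and 11.9 CPM in AET and 11.6, 12.4 and 11.7 CPM in SED, and the groups overlapped. Ifngr1, the type II receptor chain that binds its ligand, had 22.1, 27.0 and 23 CPM in AET_MET, 19.5, 20.7 and 19.3 CPM in AET and 27.7, 26.8 and 30.6 CPM in SED. All AET libraries lay below all others, with a log2 fold change of -0.51 ± 0.09 in AET against SED (edgeR adjusted p = 0.00408). This call held in every fit that left out 1 library. Among the sensors and adaptors, Tbk1, a kinase that switches on interferon genes, fell to 10.9 ± 0.909 CPM in AET, against 15.7 ± 1.38 CPM in SED (SD, n = 3; log2 fold change -0.52 ± 0.10, edgeR adjusted p = 0.00611). Mavs, the mitochondrial adaptor of the RNA sensors, fell to 28.7 ± 2.34 CPM in AET_MET, against 38.6 ± 2.25 CPM in SED (-0.43 ± 0.11, edgeR adjusted p = 0.0392), and averaged 32.9 ± 4.96 CPM in AET. The Mavs call did not hold without AET_MET replicate 1 or 3 or any single SED library, where its adjusted p ran from 0.0558 to 0.161.

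The 4 transcription factor members, Irf1, Irf7, Irf9 and Stat2, each had every AET library above every SED library, against 16.4% of all genes. Of these 4, 2 were called higher, against 5.82% of all genes. Irf9, the DNA-reading subunit of the type I complex (chromosome 14, 55603571 to 55610030), had 3.7, 2.78 and 2.83 CPM in AET_MET replicates 1 to 3, 4.44, 3.67 and 4.5 CPM in AET, and 2.93, 2.91 and 2.69 CPM in SED. AET_MET replicate 1 reached the lowest AET library, while replicates 2 and 3 lay among the SED libraries. The log2 fold change of Irf9 was 0.56 ± 0.17 in AET against SED (edgeR adjusted p = 0.0455), 0.12 ± 0.17 in AET_MET against SED (0.756), and -0.45 ± 0.17 when AET_MET was set against AET (0.146). Its call stands next to the threshold and was lost in 11 of 18 alternatives. Stat2, the partner that carries the activation domain (chromosome 10, 128270559 to 128292849), had 3.33, 2.45 and 3.55 CPM in AET_MET, 3.68, 3.9 and 4.06 CPM in AET, and 2.5, 2.07 and 2.64 CPM in SED. AET_MET libraries all lay below AET, and 2 of the 3 lay above SED. Stat2 rose by 0.69 ± 0.18 in AET against SED (edgeR adjusted p = 0.0263), and its estimates were 0.37 ± 0.19 in AET_MET against SED (0.281), and -0.32 ± 0.18 when AET_MET was set against AET (0.319). Irf1, an early target of type II interferon, averaged 5.96 ± 0.764 CPM in AET_MET, 6.92 ± 0.871 CPM in AET and 5.08 ± 1.02 CPM in SED (SD, n = 3) and was not called in AET against SED (0.45 ± 0.17, edgeR adjusted p = 0.0969). Irf7, which amplifies type I interferon production, stayed near 1 CPM in all groups, at 0.52 ± 0.27 in AET against SED (0.223).

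None of the 3 RNA sensor members passed the test in any comparison. Ifih1, encoding MDA5, had an estimate of -0.16 ± 0.16 in AET against SED, and Ddx58, encoding RIG-I, of 0.36 ± 0.17 (edgeR adjusted p = 0.531 and 0.188). Dhx58, which encodes the regulatory sensor LGP2, had 4 to 12 counts in each library. The 4 IFIT members, which bind foreign RNA, were not called either, and in each of them AET and SED libraries overlapped. Ifit1 had an estimate of -0.20 ± 0.26, Ifit2 of 0.12 ± 0.19, Ifit3 of 0.24 ± 0.25 and Ifit3b of 0.81 ± 0.39 in AET against SED. Ifit3 and Ifit3b are near-identical copies between which reads were divided. Their values were not whole in any of the 9 libraries, yet their sum was within 0.015 of a whole number in all 9. Tested as 1 gene, the pair had a log2 fold change of 0.55 ± 0.29 in AET against SED (edgeR adjusted p = 0.241), 0.06 ± 0.30 in AET_MET against SED, and -0.49 ± 0.29 when AET_MET was set against AET.

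Antiviral effectors split between genes that rose and genes that did not. Oas2, which makes the oligoadenylate signal for RNA decay (chromosome 5, 120730333 to 120749853), had 0.432, 0.648 and 1.08 CPM in AET_MET, 0.907, 0.586 and 0.892 CPM in AET, and 0.236, 0.308 and 0.147 CPM in SED. Every trained library, with or without metformin, lay above every SED library. In expected counts this was 7, 14 and 24 in AET_MET, 19, 15 and 22 in AET, and 5, 7 and 3 in SED. Oas2 reached the filter level in 3 AET, 2 AET_MET and 0 SED libraries. It was thus tested only through the groups where it was high, and its call was selected by the difference it reports. Oas2 rose by 1.74 ± 0.46 in AET against SED (edgeR adjusted p = 0.027), and its estimate in AET_MET against SED was 1.64 ± 0.47 (0.0664), with -0.11 ± 0.39 in AET_MET against AET (0.903). Oasl2, a related synthetase-like gene (chromosome 5, 114896936 to 114912234), had 0.74, 1.02 and 1.75 CPM in AET_MET, 2.43, 2.11 and 2.64 CPM in AET, and 1.28, 0.749 and 0.489 CPM in SED. All AET libraries lay above all others, and AET_MET overlapped SED. Its log2 fold change was 1.51 ± 0.35 in AET against SED (edgeR adjusted p = 0.0149), 0.50 ± 0.37 in AET_MET against SED (0.486), and -1.0 ± 0.34 when AET_MET was set against AET (0.108). Rsad2, encoding viperin, averaged 2.76 ± 0.859 CPM in AET_MET, 3.19 ± 1.13 CPM in AET and 4.68 ± 1.17 CPM in SED (SD, n = 3), and was not called in AET against SED (-0.55 ± 0.29, edgeR adjusted p = 0.246). All AET_MET libraries of Rsad2 lay below SED, with an estimate of -0.74 ± 0.30 (0.191). Bst2, encoding the virus tether tetherin, and Oas1a were not called, at 0.17 ± 0.24 and 0.55 ± 0.52 in AET against SED. Mx1 and Mx2, dynamin-like antiviral GTPases, held at most 6.61 expected counts in a library, and the annotation lists Mx2 as a polymorphic pseudogene.

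Isg15, which encodes a ubiquitin-like tag attached to other proteins, missed the filter but separated the groups. It had 4, 8 and 5 expected counts in AET_MET, 11, 15 and 10 in AET, and 1, 1 and 3 in SED. The 3 groups did not overlap. In a fit with no filter its log2 fold change was 2.59 ± 0.70 in AET against SED (edgeR adjusted p = 0.0119), 1.77 ± 0.74 in AET_MET against SED (0.251), and -0.83 ± 0.60 when AET_MET was set against AET (0.629). With 1 library left out, Isg15 passed the filter in 7 of the 9 fits and was called higher in AET against SED in 6. At the filter level of the main fit, 2 AET, 0 AET_MET and 0 SED libraries reached it. Isg15 thus passed only through AET, where it was high, and these calls were selected by the difference they report. It was not tested without AET replicate 1 or 2, and it was not called without SED replicate 2. These fold changes rest on few counts and on how the fit treats them. Usp18, which removes ISG15 and damps the receptor, ran the other way without being called, at -0.35 ± 0.30 in AET against SED (edgeR adjusted p = 0.467).

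Dtx3l and Parp9 encode partners in ADP-ribosylation and ubiquitination, and they lie on opposite strands of chromosome 16 with 682 bases in common. The sources used here do not give the strand setting of the counting, so reads in the shared stretch cannot be assigned. Dtx3l (35926511 to 35939151) had 17.0, 13.2 and 13.7 CPM in AET_MET, 19.2, 17.1 and 18.3 CPM in AET, and 13.8, 12.0 and 13.9 CPM in SED. AET lay above both other groups, and AET_MET replicates 2 and 3 fell within the SED range. It rose by 0.46 ± 0.11 in AET against SED (edgeR adjusted p = 0.0174), with 0.14 ± 0.11 in AET_MET against SED (0.52), and -0.32 ± 0.11 when AET_MET was set against AET (0.115). Parp9 was not called, at 0.39 ± 0.16 (edgeR adjusted p = 0.124), nor was Parp14, a larger enzyme of that family, at 0.38 ± 0.12 (0.0591). In both of them every AET library lay above every SED library, as in 16.4% of all genes.

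**Figure D2:**
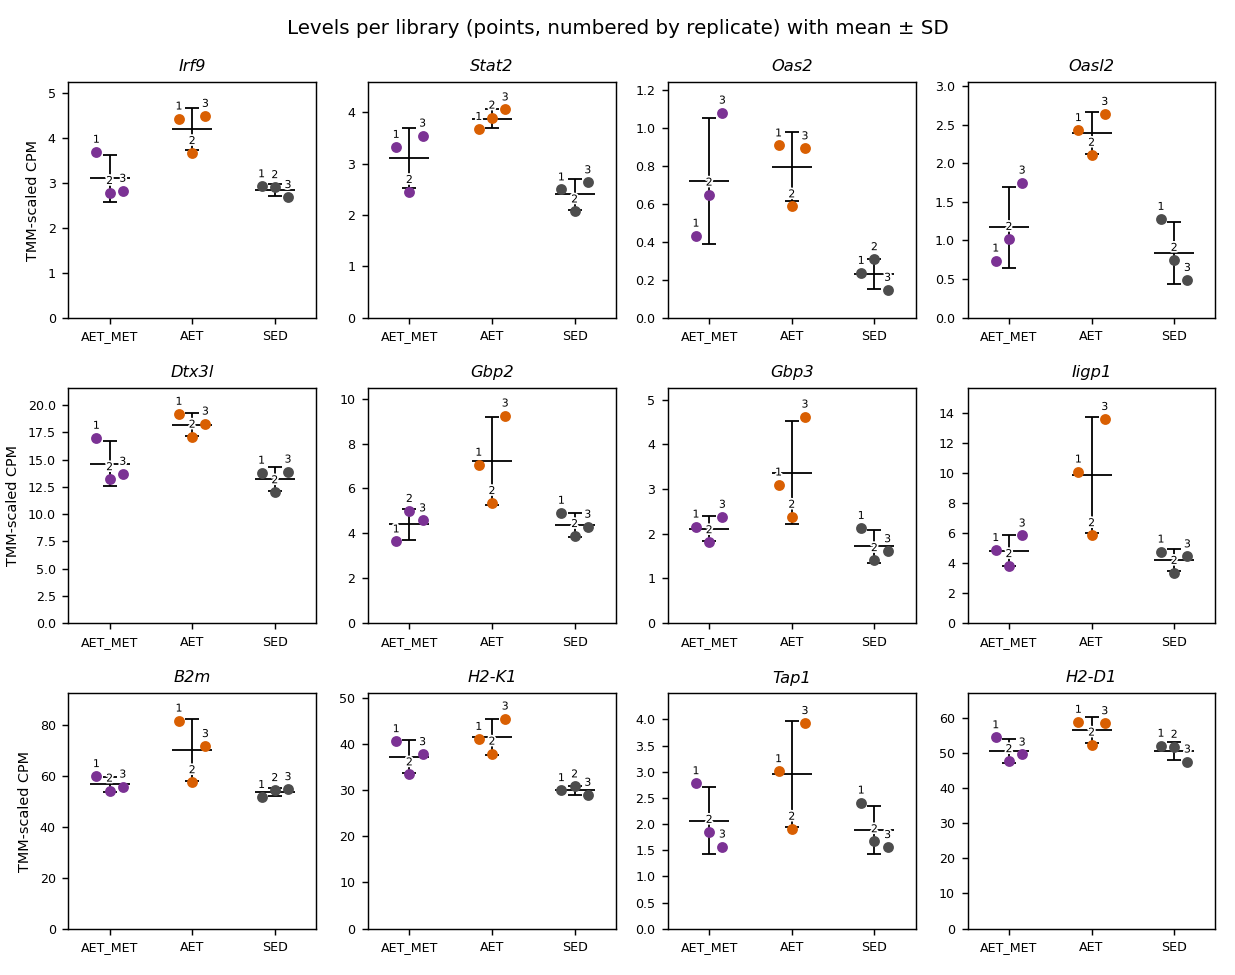
TMM-scaled CPM of the 10 called members and of Tap1 and H2-D1 in each library, numbered by replicate, with mean ± SD (n = 3) for AET_MET, AET and SED. For Oasl2, Dtx3l, Gbp2 and Iigp1 the 3 AET points lie above all others, while the AET_MET points of Oas2 lie above SED.

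GTPase members formed the group with the highest median estimate in AET against SED, 0.73 over 5 genes. Of these, 3 were called higher, against 5.82% of all genes. Gbp2, a guanylate-binding protein that coats parasite vacuoles (chromosome 3, 142620602 to 142638008), had 3.64, 5.0 and 4.58 CPM in AET_MET, 7.06, 5.35 and 9.25 CPM in AET, and 4.92, 3.88 and 4.3 CPM in SED. AET lay above both other groups, which overlapped. Gbp2 rose by 0.73 ± 0.20 in AET against SED (edgeR adjusted p = 0.0295), with 0.02 ± 0.20 in AET_MET against SED (0.966), and -0.70 ± 0.20 when AET_MET was set against AET (0.0643). Gbp3 of the same cluster (chromosome 3, 142560026 to 142573209) had 2.16, 1.81 and 2.38 CPM in AET_MET, 3.1, 2.38 and 4.62 CPM in AET, and 2.13, 1.41 and 1.61 CPM in SED. The highest AET_MET library and the lowest AET library were both near 2.38 CPM. Gbp3 had a log2 fold change of 0.97 ± 0.26 in AET against SED (edgeR adjusted p = 0.0279), 0.30 ± 0.27 in AET_MET against SED (0.577), and -0.67 ± 0.25 when AET_MET was set against AET (0.148).

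Iigp1, an immunity-related GTPase that disrupts parasite vacuoles (chromosome 18, 60376027 to 60392634), had 4.87, 3.8 and 5.84 CPM in AET_MET, 10.1, 5.86 and 13.6 CPM in AET, and 4.77, 3.35 and 4.45 CPM in SED. AET replicate 3 was the highest, and AET replicate 2 lay just above AET_MET replicate 3. Iigp1 rose by 1.23 ± 0.30 in AET against SED (edgeR adjusted p = 0.0295), with 0.21 ± 0.31 in AET_MET against SED (0.761), and -1.02 ± 0.30 when AET_MET was set against AET (0.0917). Without AET replicate 3 the estimate in AET against SED was 0.92 (edgeR adjusted p = 0.0611). Without AET replicate 2 the one in AET_MET against AET was -1.29 (0.0138). Igtp and Irgm1, related GTPases of the same family, were not called, each at 0.11 in AET against SED, and their libraries overlapped.

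Other GTPases of the pathway list gave 5 genes called higher and 1 lower of 9 tested in AET against SED, where 5.82% and 6.45% of all genes were called. Gbp9 rose to 10.1 ± 1.45 CPM in AET, against 5.93 ± 0.597 CPM in SED (SD, n = 3; log2 fold change 0.77 ± 0.13, edgeR adjusted p = 0.00337), and its call held in every fit that left out 1 library. Tgtp1 and Tgtp2, chosen after their values were seen, are near-identical copies, so the split between them is uncertain. Both are among the 5 genes called higher, and their calls may rest on the same reads. They were not tested as 1 gene. Their sum was within 0.015 of a whole number in only 1 of the 9 libraries, so part of their reads was divided with other genes too. Tgtp2 had 1.91, 2.27 and 2.65 CPM in AET_MET, 5.44, 2.97 and 10.2 CPM in AET and 1.75, 1.94 and 1.56 CPM in SED, with a log2 fold change of 1.82 ± 0.40 in AET against SED (edgeR adjusted p = 0.0212). The Tgtp2 call was lost without AET replicate 1 or any single SED library, where its adjusted p ran from 0.0545 to 0.0796. Tgtp1 had an estimate of 1.54 ± 0.44 (0.0458), and 0.92 without AET replicate 3 (0.126). Gbp6 ran opposite to its family. It had 7.89, 16.9 and 7.95 CPM in AET_MET, 13.7, 14.4 and 15.9 CPM in AET and 31.2, 41.5 and 63.7 CPM in SED. Both trained groups lay below SED, at -2.05 ± 0.38 in AET_MET against SED and -1.63 ± 0.37 in AET against SED (edgeR adjusted p = 0.0362 and 0.035). The first of these calls was lost without AET_MET replicate 1 or 3, any AET library, or SED replicate 2 or 3, and the second without any AET library or SED replicate 2 or 3, with both estimates at or below -1.31 throughout. Expected counts of Gbp6 were not whole, so part of its reads was divided with other genes.

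**Figure D3:**
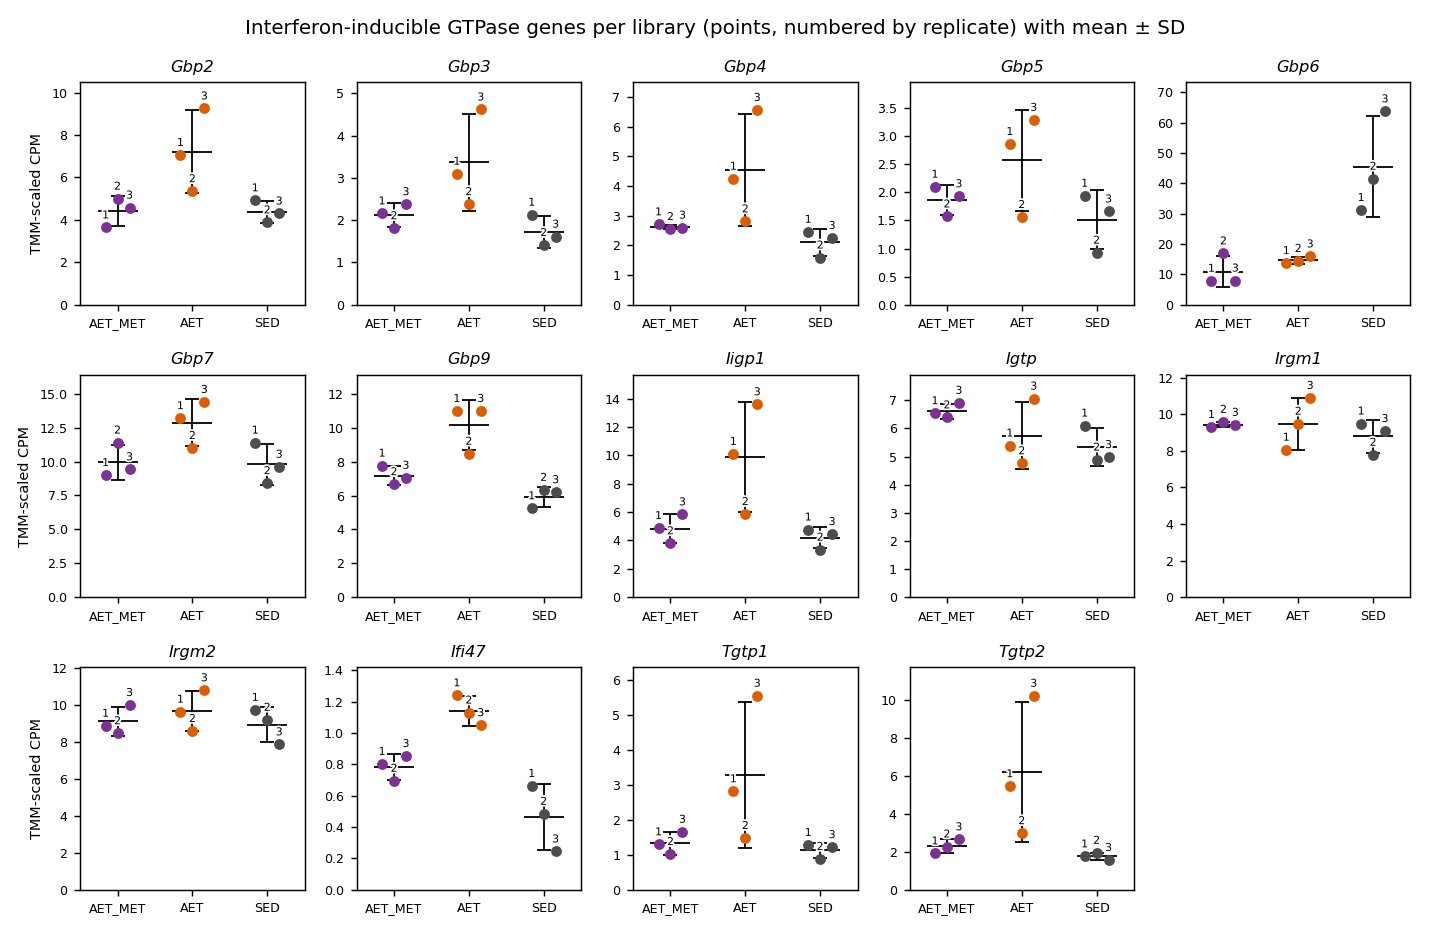
TMM-scaled CPM of the 14 tested interferon-inducible GTPase genes in each library, numbered by replicate, with mean ± SD (n = 3) for AET_MET, AET and SED. AET replicate 3 is the highest AET point in 13 of the 14 panels, and Gbp6 alone has its SED points above both trained groups.

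B2m, H2-D1 and H2-K1, the chains of class I molecules, were the most abundant members per length of exon. B2m had 65.9 CPM per kb in AET_MET, 81.8 in AET and 62.4 in SED, H2-D1 had 19.6, 21.9 and 19.6 in those groups and H2-K1 12.7, 14.1 and 10.2, ahead of Ifi27 at 6.3, 5.39 and 6.02. The lowest levels per length were those of Mx1, at 0.0254, 0.0409 and 0.0372. B2m, the light chain of every class I molecule (chromosome 2, 122147686 to 122153083), had 59.9, 54.2 and 55.8 CPM in AET_MET, 81.7, 57.5 and 71.7 CPM in AET, and 51.7, 54.4 and 54.8 CPM in SED. AET replicate 2 lay within the AET_MET range, and AET replicates 1 and 3 stood above all other libraries. B2m rose by 0.39 ± 0.11 in AET against SED (edgeR adjusted p = 0.0314), with 0.08 ± 0.11 in AET_MET against SED (0.731), and -0.31 ± 0.11 when AET_MET was set against AET (0.113).

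H2-K1, a classical class I heavy chain (chromosome 17, 33996017 to 34000347), had 40.6, 33.4 and 37.8 CPM in AET_MET, 41.1, 37.9 and 45.5 CPM in AET, and 30.0, 30.8 and 29.0 CPM in SED. All 6 libraries of trained mice lay above all 3 SED libraries. Its log2 fold change was 0.47 ± 0.09 in AET against SED (edgeR adjusted p = 0.00572), 0.31 ± 0.09 in AET_MET against SED (0.0686), and -0.16 ± 0.09 when AET_MET was set against AET (0.331). H2-D1, the other classical heavy chain on this list (chromosome 17, 35262730 to 35267499), had 54.4, 47.6 and 49.5 CPM in AET_MET, 58.8, 52.3 and 58.4 CPM in AET, and 52.0, 51.7 and 47.5 CPM in SED. AET replicate 2 was close to the highest SED library, and H2-D1 was not called, at 0.16 ± 0.08 in AET against SED (edgeR adjusted p = 0.194), 0.00 ± 0.08 in AET_MET against SED (0.998), and -0.16 ± 0.08 when AET_MET was set against AET (0.256). Class I heavy chain genes are close in sequence, and how reads were divided among them was not tested. Summed with the H2-Q genes, H2-K1 and H2-D1 gave 0.33 ± 0.09 in AET against SED (edgeR adjusted p = 0.0328), 0.14 ± 0.09 in AET_MET against SED (0.401), and -0.19 ± 0.09 when AET_MET was set against AET (0.258).

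Tap1, a subunit of the pump that brings peptides to class I molecules (chromosome 17, 34187553 to 34197225), had 2.78, 1.85 and 1.57 CPM in AET_MET, 3.01, 1.91 and 3.93 CPM in AET, and 2.41, 1.67 and 1.56 CPM in SED. The groups overlapped, and Tap1 was not called, at 0.65 ± 0.29 in AET against SED (edgeR adjusted p = 0.167), 0.11 ± 0.31 in AET_MET against SED (0.876), and -0.53 ± 0.29 when AET_MET was set against AET (0.317). Its partner Tap2, which is not on the list of 37, had 5.12, 4.21 and 4.58 CPM in AET_MET, 7.49, 7.34 and 7.58 CPM in AET and 4.25, 4.18 and 6.01 CPM in SED. AET stood above both other groups. Tap2 fell in AET_MET against AET, with a log2 fold change of -0.69 ± 0.15 (edgeR adjusted p = 0.031), and it was called higher in AET against SED (0.64 ± 0.15, 0.0174). The call in AET_MET against AET was lost without any single AET_MET or AET library, where its adjusted p ran from 0.0582 to 0.119. The one in AET against SED was lost without AET replicate 3 or SED replicate 1 or 2 (0.0588 to 0.0733). Of 20 tested class I genes outside the 37, 3 were called higher and 0 lower in AET against SED, where 5.82% and 6.45% of all genes were. Among them Psmb8, an immunoproteasome subunit, rose to 3.63 ± 0.41 CPM in AET, against 2.16 ± 0.0892 CPM in SED (SD, n = 3; 0.75 ± 0.17, edgeR adjusted p = 0.0125), and averaged 2.65 ± 0.213 CPM in AET_MET. The Psmb8 call was lost without AET replicate 3 (0.65, 0.0594). Of 8 class II genes, 2 were called higher in AET against SED, against those 5.82% of all genes, such as Ciita, the class II master regulator, at 1.61 ± 0.571 CPM in AET and 0.492 ± 0.211 CPM in SED (SD, n = 3; 1.68 ± 0.44, edgeR adjusted p = 0.0256). Ciita was no longer called without AET replicate 1 or 3 or SED replicate 1 or 3, with estimates from 1.4 to 1.69.

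The remaining members are interferon-stimulated genes of mixed or less settled roles, and none was called in any comparison. Ifi27, Ifi35, Rtp4 and Xaf1 had estimates from -0.16 to 0.24 in AET against SED, with overlapping libraries. Xaf1, linked to cell death, had all AET_MET libraries below AET, at -0.78 ± 0.32 in AET_MET against AET (edgeR adjusted p = 0.184). Ifi44 had 2 to 11 counts in each library and was not tested. Of the wider list of other interferon-stimulated genes, 5 of 32 were called higher and 2 lower in AET against SED, where 5.82% and 6.45% of all genes were. Slfn5, of the Schlafen family, rose to 39.8 ± 1.94 CPM in AET, against 27.1 ± 3.48 CPM in SED (SD, n = 3; 0.56 ± 0.09, edgeR adjusted p = 0.00319). Tor3a, a torsin, was called lower in AET_MET against SED, at 5.11 ± 0.419 CPM in AET_MET and 7.36 ± 0.313 CPM in SED (SD, n = 3; -0.52 ± 0.13, edgeR adjusted p = 0.0404). That call was lost in 8 of the 9 fits that left out 1 library, with adjusted p from 0.0549 to 0.137.

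Levels of the members differed among the AET libraries. Each library was described by the median over the 33 members of the log2 ratio to the SED mean, with 0.1 CPM added. This median was 0.07, 0.03 and 0.14 in AET_MET replicates 1 to 3, 0.35, 0.15 and 0.42 in AET, and 0.11, -0.14 and -0.03 in SED, while that of all tested genes stayed between -0.01 and 0.01. AET replicate 2 thus stood near AET_MET replicate 3. Within AET, replicate 3 was the highest library for 20 of the 33 members, against 32.4% of all genes, and replicate 2 the lowest for 23, against 33.3%. Over all 9 libraries the highest value fell in AET for 24 members, in AET_MET for 4 and in SED for 5, against 35.0%, 30.8% and 34.2% of all genes.

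**Figure D4:**
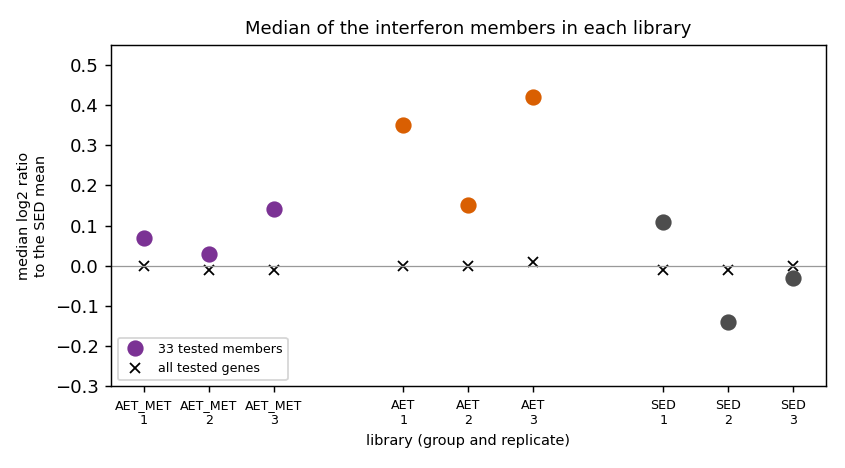
Median over the 33 tested members of the log2 ratio to the SED mean in each library (filled points), with the same median over all tested genes (crosses); 0.1 CPM was added before the ratio. The AET points lie at 0.35, 0.15 and 0.42, and the crosses lie between -0.01 and 0.01.

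Fiber markers of the labelled tissue were abundant, and the 11 of them summed to at least 216679 CPM in every library. Single fiber markers varied between libraries. Myh7 had 2.28, 265 and 99.2 CPM in AET_MET, 131, 84.1 and 534 CPM in AET and 253, 323 and 280 CPM in SED. Myh2 had 1449, 1599 and 882 CPM in AET_MET, 2010, 2330 and 3469 CPM in AET and 1631, 2436 and 2933 CPM in SED. Leukocyte markers were near 0 for several types. Markers of T cells (7 genes, at most 0.449 CPM summed), NK cells (5 genes, at most 0.122) and neutrophils (5 genes, at most 0.881, with Ly6g at 0 in every library) were too low to test. Those of B and plasma cells were too, at 0.432 to 0.539 CPM in AET_MET, 0.477 to 1.56 in AET and 0.142 to 0.489 in SED. Ptprc, carried by all leukocytes, had 5.12, 4.17 and 2.83 CPM in AET_MET, 6.2, 4.49 and 4.18 CPM in AET and 3.17, 4.27 and 3.03 CPM in SED, and was not called in AET against SED (0.50 ± 0.23, edgeR adjusted p = 0.173). Macrophage and monocyte markers summed to 107 to 133 CPM in AET_MET, 120 to 175 in AET and 110 to 165 in SED. Of the 11 tested, 0 were called in AET against SED, where 12.3% of all genes were. Estimates lay above 0 for 9 of the 11 in that comparison, against 51.4% of all genes, with a median of 0.24. In AET_MET against AET they lay below 0 for 10, against 49.9% of all genes, with a median of -0.30. The 5 dendritic cell markers summed to 1.44 to 2.34 CPM in AET_MET, 1.62 to 2.24 in AET and 0.879 to 1.45 in SED. Of the 2 tested, 1 was called higher in AET against SED, where 5.82% of all genes were. This was Siglech (1.20 ± 0.35, edgeR adjusted p = 0.0419). It had 1.11, 1.07 and 1.12 CPM in AET_MET, 1.0, 1.37 and 0.649 CPM in AET and 0.378, 0.396 and 0.537 CPM in SED. Itgax also averaged higher in AET than in SED, while Flt3, Xcr1 and Ccr9, which were too low to test, averaged lower.

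Endothelial markers (8 genes) summed to 201 to 248 CPM in AET_MET, 263 to 316 in AET and 234 to 262 in SED. In AET against SED 1 was called higher and 1 lower, where 5.82% and 6.45% of all genes were. Smooth muscle and pericyte markers (6 genes) summed to 498 to 592 CPM in AET_MET, 593 to 688 in AET and 505 to 587 in SED, and Schwann cell markers (5 genes) to 13.0 to 30.7, 35.0 to 58.7 and 16.7 to 20.0 in those groups. In all 3 lists the AET sums lay above both other groups, though for smooth muscle and pericyte only by 593 against 592 CPM. Of the 8 endothelial markers, 6 had estimates above 0 in AET against SED and 2 below. Kdr averaged 65.1 CPM in AET and 31.8 in SED, while Pecam1 averaged 59.7 and 72.6 and Cldn5 5.48 and 11.2. Of the 6 smooth muscle and pericyte markers, 4 had estimates above 0 in AET against SED and 2 below. Myh11 averaged 134 CPM in AET and 72.2 in SED and Acta2 81.4 and 38.0, while Rgs5 averaged 336 and 349 and Pdgfrb 36.4 and 42.6. Fibroblast markers (7 genes) summed to 707 to 774 CPM in AET_MET, 836 to 914 in AET and 1020 to 1387 in SED, so that AET lay above AET_MET and below SED. Markers of regenerating fiber (4 genes) reached 73.0 CPM in SED replicate 2, against 16.0 to 24.9 in AET_MET, 20.1 to 22.3 in AET and 19.5 to 19.7 in the other SED libraries. By the same rule, 2 of 6 smooth muscle and pericyte markers and 3 of 5 Schwann cell markers were called higher in AET against SED. Lower calls were 2 of 7 fibroblast markers and 1 of 11 fiber markers, and 0 of 4 regenerating fiber markers were called. The part of these cell types in the interferon results was not tested.

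**Figure D5:**
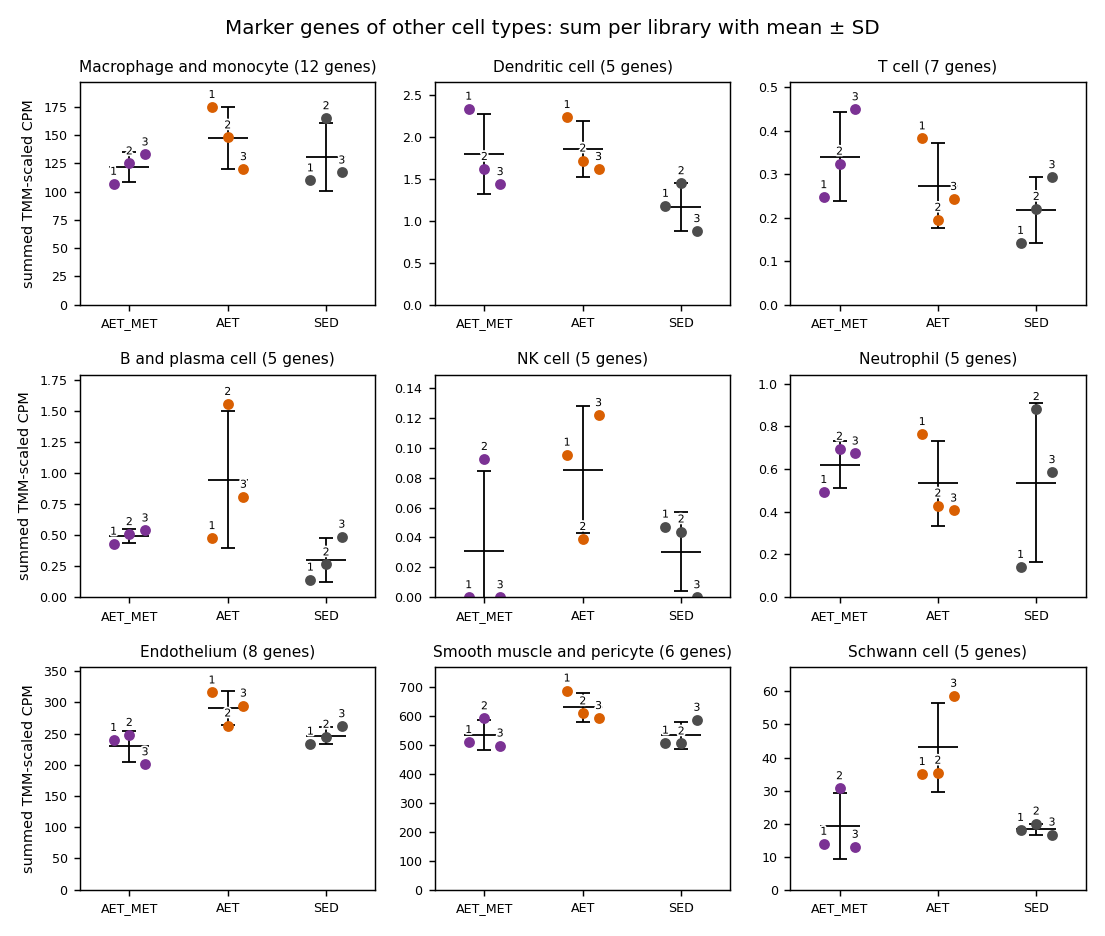
Summed TMM-scaled CPM of marker genes of 9 other cell types in each library, numbered by replicate, with mean ± SD (n = 3) for AET_MET, AET and SED; each panel has its own scale. Endothelial, smooth muscle and Schwann cell sums are highest in AET, and T, NK and neutrophil sums stay under 1 CPM.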

How the data were processed

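The authors deposited expected counts per gene, as RSEM estimates them, with 1 column per library; libraries held 15434424 to 25355877 counts, and 4.85% to 5.53% of a library's values were not whole. STAR 2.5.3a, RSEM 1.3.0, edgeR 3.34.0 and GRCm38 are named without roles, per the submitters' processing notes, and libraries came from a SMARTER mRNA-Seq kit, per the labels' protocols. The sources used here do not give the annotation release, filters or strand setting. Symbols came from GENCODE M21 for 52083 of 55416 identifiers. Expected counts were rounded to whole numbers. TMM scaling, the filterByExpr filter and robust quasi-likelihood tests came from edgeR 4.0.16 (R 4.3.3), in 1 fit to all 9 libraries with 13944 genes and 6 residual degrees of freedom. P-values were adjusted by Benjamini-Hochberg over all genes, and SE is the log2 fold change over the square root of F. DESeq2 1.42.0, other scalings and filters, a replicate block and leaving out each library were tried. Counts of any pair within a group differed beyond sampling noise (chi-square per degree of freedom of 15.7 or more), so no pair was merged. The members and lists were chosen with earlier results of these data known. Values in every library are given for called members and the 4 antigen presentation members. Other pathway genes named are the called gene of lowest p in each list and comparison, Ifnar1, Ifngr1, Ifng, Ifnb1 and Psmb8, and genes said to be chosen after their values were seen. One gene of the wider pathway list is not reported here.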

Additional observations from a re-analysis of the deposited data

How the results depend on the processing

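Of 19 alternatives, 9 left out 1 library each. Members called higher in AET against SED numbered 10; the count was 6 with a filter of 5 CPM in 3 libraries, which left 14 members tested, and 1 to 10 with 1 library left out, where 1 to 9 were among the 10 and Isg15 or Parp14 made up the rest. It was 9 with DESeq2 and 10 with the replicate block, 9 of them shared with the fit without the block. In AET_MET against SED, where 0 were called, library sizes alone gave 2 (Oas2 and H2-K1) and leaving out 1 library gave 0 or 1. That scaling moved the median of all genes by 0.10. In AET_MET against AET, where 0 were called, DESeq2 gave 2, no filter 1, the 5 CPM filter 1, the replicate block 1 (Iigp1) and leaving out 1 library 0 to 3, the last without AET replicate 2, which added Gbp2, Iigp1 and B2m. The causes were not tested. Same-numbered libraries correlated at -0.051 to 0.184 in their deviations from the group means, so the numbers were not taken to pair them. Estimates near 0 turned in sign: with 1 library left out, Irf9 ran from -0.02 to 0.17, Gbp2 from -0.09 to 0.14, and Tap1 from -0.14 to 0.33 in AET_MET against SED, and Oas2 from -0.54 to 0.13 in AET_MET against AET. Ifnar1 ran from -0.04 to 0.01 in AET against SED, -0.14 to 0.01 in AET_MET against SED and -0.12 to 0.03 in AET_MET against AET. It was 0.02 with upper-quartile scaling and 0.01 with the 5 CPM filter in AET against SED, and 0.05 and 0.06 with library sizes alone in AET_MET against SED and AET_MET against AET. Depth limits Oas2, Isg15, Mx1, Mx2, Ifi44, Dhx58 and Oas1a, which had few counts.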
